A study of Mus musculus with 6 samples.

Results

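Cells that meet DNA or RNA in the wrong place use a small set of proteins to notice it. Here 10 genes of that machinery were chosen by name, all but Tlr3 for their place in the cytosolic cGAS-STING and RIG-I-like receptor pathways. They were matched exactly to the gene symbols of a count table of 10520 genes. The table holds 8 of the 10: Mb21d1, Tmem173, Mavs, Tbk1, Irf3, Ddx58, Dhx58 and Trex1. Ifih1, which encodes the long-RNA sensor MDA5, and Tlr3, which encodes a sensor of double-stranded RNA inside endosomes, had no row in the table used here and were not analysed here. The rule used gene names only, but the names were chosen with earlier results of these data known.

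The libraries came from E0771, a breast adenocarcinoma line of the C57BL/6 mouse that grows as a metastatic tumour in that strain. Both groups carried a lentiviral vector and were selected and expanded in puromycin. The 3 shControl libraries came from cells with the control vector, which the paper lists as an empty vector. The 3 shLmna libraries came from cells with an shRNA against Lmna, the gene for lamin A and lamin C, titled shRNA4 in the labels. By that listing only the shLmna cells expressed a hairpin RNA, and its presence and the knockdown of Lmna cannot be told apart. RNA of bulk cultures was sequenced by MARS-seq, a 3' method that counts each captured molecule once by its unique molecular identifier (UMI).

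The labels show 1 transduced line per group and do not say whether the replicates were separate cultures, so that every p-value below measures the spread between these libraries, which may be technical. The shControl libraries sat at plate positions 13 to 15 and the shLmna libraries at 16 to 18, and position and group cannot be told apart. Library totals lay between 1846208 and 3242051 UMIs. The spread between libraries of 1 group exceeded counting noise, as the chi-square statistic divided by its degrees of freedom was 5.11 to 8.28 in the 6 pairs of libraries within a group. Levels are given in the counts-per-million unit (CPM) of UMIs, after TMM scaling between libraries, and do not grow with transcript length, since each molecule is counted once at its 3' end. Fold changes are shLmna over shControl. The knockdown was visible in the counts. Lmna had 2066, 2794 and 1764 UMIs in shControl and 1035, 1023 and 713 in shLmna, and it fell from 873 ± 62.8 to 381 ± 6.34 CPM (SD, n = 3 each), a log2 fold change of -1.20 with a standard error of 0.13 (edgeR quasi-likelihood test, Benjamini-Hochberg adjusted p = 3.5e-05).

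As background, cGAS (Mb21d1) binds double-stranded DNA in the cytosol and makes the cyclic dinucleotide cGAMP, which activates STING (Tmem173) on the endoplasmic reticulum. RIG-I (Ddx58) and MDA5 bind foreign or misplaced double-stranded RNA and signal through MAVS on mitochondria. Both routes meet at the kinase TBK1, which phosphorylates the transcription factor IRF3, and IRF3 then turns on type I interferon and a first wave of interferon-stimulated genes. TREX1 degrades cytosolic DNA before cGAS sees it. Weakening of the nuclear lamina is known to let DNA reach the cytosol in some cells.

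None of the 8 measured sensing genes differed between shControl and shLmna past the threshold of adjusted p below 0.05. Of all 8969 tested genes 13.7% did (1232 genes), and 8 genes are too few to set a count of 0 apart from that share. All 8 were deep enough to enter the test. At an unadjusted p below 0.05 the count of sensing genes was also 0 in edgeR and in DESeq2, against 28.4% of all tested genes in edgeR. The 8 log2 fold changes lay between -0.18 and 0.48 with a median of 0.16, beside a median of 0.0033 over all tested genes. The estimate was above 0 for 6 genes and below 0 for 2. The 95% interval of the log2 fold change lay within 1 of 0 for 7 of the 8, as it did for 71.6% of all tested genes, and within 0.5 of 0 only for Mavs. In bulk RNA a lower share of expressing cells and less RNA per cell cannot be told apart.

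**Figure D1:**
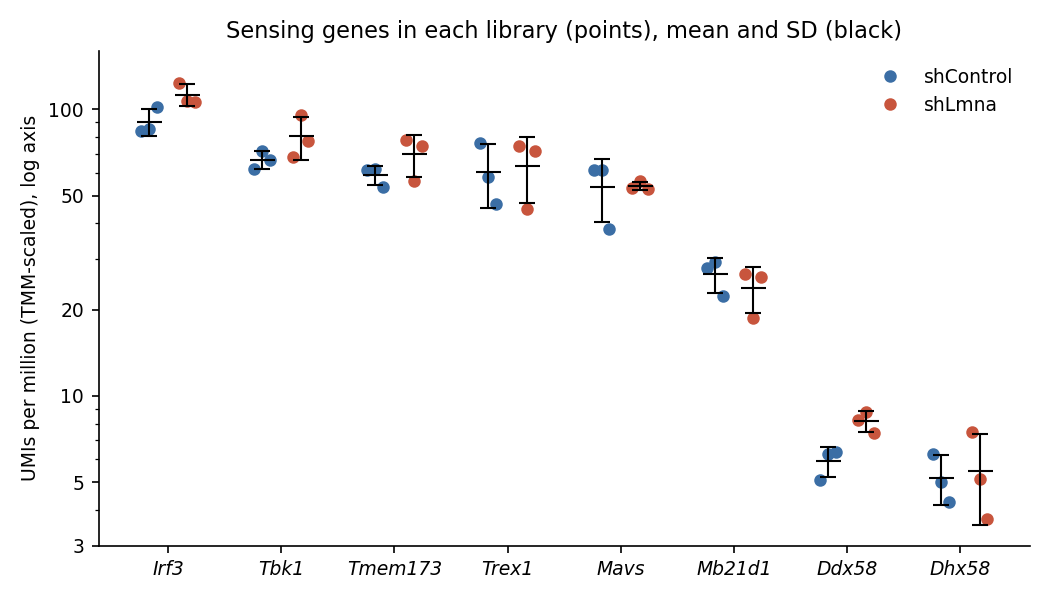
Level of each listed sensing gene in CPM (TMM-scaled, log axis) in the 3 shControl and 3 shLmna libraries. Points are libraries, and the black marks are the mean and SD. The groups are apart for Irf3 and Ddx58 and overlap for the other 6 genes.

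RefSeq promoter sequences (GRCm38.p6) were read for the sensing genes and, further on, for the genes they control. The motif GAAA, any 2 bases and GAAA again, the core of the interferon-stimulated response element to which IRF3, IRF9 and related factors bind, was searched on both strands from 250 bases before to 50 bases after each start. It was found in 3.44% of all 32851 windows and in 3.99% of 27025 genes. Among the 8 sensing genes with a window, of the 10 chosen, it was found in 2, Ifih1 and Ddx58. A match is a description of letters and not evidence of binding. The stretch of Ddx58 is shown first because it is the sensing gene in the table with a match (chr4:40239811-40239840, minus strand), followed by bases 100 to 1 before the start of Irf3 (chr7:44997548-44997647, plus strand) and Mb21d1 (chr9:78443238-78443337, minus strand), whose windows had none. Capitals mark the motif or its reverse complement.
Ddx58: ccagcgccctgaggcagTTTCGATTTCcta
Irf3: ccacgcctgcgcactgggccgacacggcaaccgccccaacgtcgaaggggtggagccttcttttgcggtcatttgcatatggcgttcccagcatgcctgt
Mb21d1: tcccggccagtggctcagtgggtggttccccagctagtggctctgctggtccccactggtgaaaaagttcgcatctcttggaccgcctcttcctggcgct

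The DNA sensor did not differ past the threshold. Mb21d1 (chr9:78430526-78443237, minus strand, mm10, named Cgas in GENCODE) had 71, 94 and 42 UMIs in shControl and 71, 51 and 49 in shLmna. The level was 26.5 ± 3.74 CPM in shControl and 23.8 ± 4.40 in shLmna (SD, n = 3 each), and the ranges overlapped. Its log2 fold change of -0.18 had a 95% interval from -0.64 to 0.29 (edgeR adjusted p = 0.640). The annotation places Gm8093 on the opposite strand over it, and the strand used in counting was not given in the sources used here.

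The RNA sensors were the scarcest members. Ddx58 (RIG-I, chr4:40203773-40239828, minus strand) had 13, 20 and 12 UMIs in shControl and 22, 24 and 14 in shLmna. These counts correspond to 5.91 ± 0.702 and 8.17 ± 0.687 CPM (SD, n = 3 each). The highest shControl library reached 6.37 and the lowest shLmna library stood at 7.45, so the groups did not overlap. The fitted log2 fold change of 0.48 had a wide 95% interval, from -0.18 to 1.13, and did not pass the test (edgeR adjusted p = 0.334). This is the only sensing gene whose interval reached past 1. Dhx58, which encodes LGP2, a relative of RIG-I that lacks the signalling domains and tunes the other RNA sensors (chr11:100694884-100704271, minus strand), had 16, 16 and 8 UMIs in shControl and 20, 14 and 7 in shLmna. Its levels of 5.17 ± 1.03 and 5.45 ± 1.91 CPM (SD, n = 3 each) overlapped, and its log2 fold change was 0.094 with a 95% interval of -0.70 to 0.88 (edgeR adjusted p = 0.90). An annotated antisense gene, Dhx58os, covers it.

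The adaptors that each sensor arm depends on were well expressed in both groups. Tmem173 (STING, chr18:35733679-35740554, minus strand) had 156, 198 and 101 UMIs in shControl and 209, 153 and 140 in shLmna, or 58.9 ± 4.61 against 69.7 ± 11.8 CPM (SD, n = 3 each). The second shLmna library lay inside the shControl range and the other two above it. The log2 fold change was 0.23, with a 95% interval from -0.13 to 0.60 (edgeR adjusted p = 0.400). Mavs (chr2:131234063-131248025, plus strand) had 156, 197 and 72 UMIs in shControl and 142, 153 and 99 in shLmna. Its fold change was the nearest to 1 of the 8, with means of 53.7 ± 13.4 and 54.0 ± 1.89 CPM (SD, n = 3 each), and the third shControl library alone stood low, at 38.2. The log2 fold change was -0.0046 with a 95% interval of -0.41 to 0.40 (edgeR adjusted p = 0.992), and its sign changed with the processing.

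Downstream of both adaptors, the kinase and its transcription factor had the highest mean levels. Tbk1 (chr10:121546455-121586787, minus strand) had 158, 229 and 125 UMIs in shControl and 182, 260 and 146 in shLmna. Levels were 66.6 ± 4.83 and 80.4 ± 13.8 CPM (SD, n = 3 each), with the first shLmna library inside the shControl range. The log2 fold change was 0.27, with a 95% interval from -0.08 to 0.63 (edgeR adjusted p = 0.310). Irf3 (chr7:44997648-45002848, plus strand) had 214, 273 and 192 UMIs in shControl and 330, 292 and 199 in shLmna. The shControl libraries stood at 83.9, 85.4 and 101.9 CPM and the shLmna libraries at 123.7, 107.2 and 105.8, so that every shLmna library was above every shControl library. With means of 90.4 ± 9.97 and 112.2 ± 9.93 (SD, n = 3 each) the ratio was 1.25, a log2 fold change of 0.32 whose 95% interval ran from -0.0030 to 0.64. Irf3 had the smallest p of the sensing genes, 0.0520 before adjustment and 0.181 after it in edgeR, which placed it at rank 2579 of the 8969 tested genes. Scaf1 lies on the opposite strand over part of Irf3.

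The exonuclease that clears cytosolic DNA varied widely between libraries of both groups. Trex1 (chr9:109057933-109059734, minus strand) had 195, 185 and 88 UMIs in shControl and 199, 122 and 134 in shLmna. Its levels were 60.3 ± 15.1 and 63.5 ± 16.3 CPM (SD, n = 3 each), with broad overlap of the groups. The log2 fold change of 0.061 had a 95% interval from -0.40 to 0.53 (edgeR adjusted p = 0.891). Trex1 shares exons on the same strand with Atrip, so reads could be split between them and its value is uncertain.

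Groups that did not overlap were found for 2 of the 8 genes, 25% of them, both with higher values in shLmna. Over all tested genes the share was 32.5% in either direction, above that of the sensing genes, and 16.8% with higher values in shLmna, below it. The smallest p that an exact permutation test can give for 3 against 3 libraries is 0.1, so that this test cannot pass 0.05 for any single gene. The 8 genes together summed to 383.9, 379.0 and 339.6 CPM in shControl and 440.4, 392.5 and 419.0 in shLmna. The means were 367.5 ± 24.3 and 417.3 ± 24.0 (SD, n = 3 each), a shLmna sum at 113.5% of the shControl sum, and no test was made on it because the genes were chosen with earlier results of these data known.

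The order of the levels was almost the same in both groups. In shControl it ran Irf3, Tbk1, Trex1, Tmem173, Mavs, Mb21d1, Ddx58, Dhx58, and in shLmna Tmem173 and Trex1 changed places. The library range of Irf3 did not overlap that of Tbk1 in either group. Neighbours among Tbk1, Trex1, Tmem173 and Mavs overlapped, which leaves their order undecided at this spread. Mb21d1 was separated from Mavs above it and from Ddx58 below it in both groups, and Ddx58 and Dhx58 overlapped. Among all tested genes, Irf3 stood at the 76.0 percentile of mean level, Tbk1 at 68.6, Tmem173 at 65.4, Trex1 at 64.6, Mavs at 60.6 and Mb21d1 at 40.5. RIG-I and LGP2 stood far lower, at 11.3 and 6.67, and with 7 to 24 UMIs per library their fold changes are the least precise.

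The genes whose levels over the 6 libraries were most like those of Irf3 were Golga7, with a Pearson r of 0.986 on log2 values, Sept10 with 0.984 and Abhd17c with 0.979. None of these 3 passed the test (edgeR adjusted p = 0.345, 0.195 and 0.153). Of the 8968 genes compared, 113 had an r over 0.9, and all points share the same 6 libraries and their depth.

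**Figure D2:**
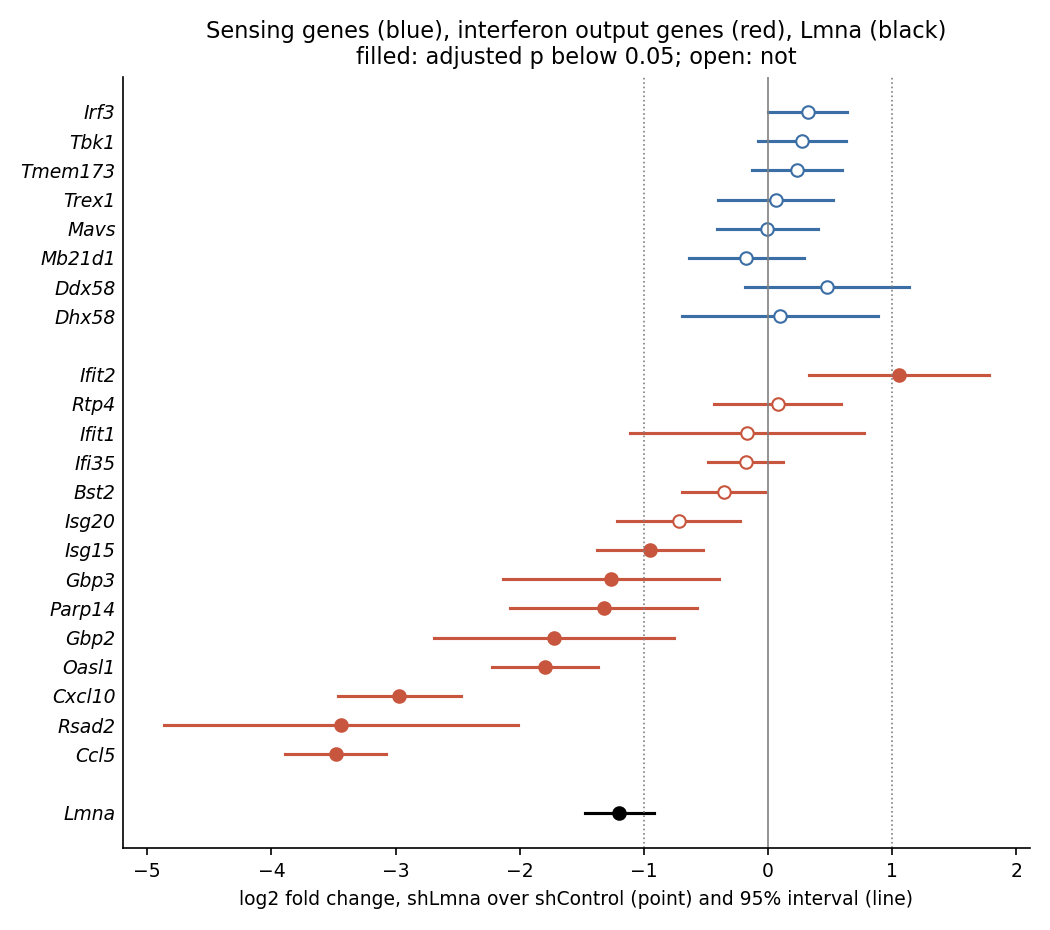
Log2 fold change of shLmna over shControl (point) with its 95% interval (line) for the 8 sensing genes in blue, the 14 tested genes of the IRF3 and interferon output list in red, and Lmna in black. Filled points passed adjusted p below 0.05: none of the sensing genes did, and 9 of the 14 output genes did.

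The far end of the pathway was read from its transcriptional output. A list of 22 genes that IRF3 or interferon is known to induce had 17 members in the table and 14 that were tested. Of these 14, 8 fell and 1 rose, and 5 did not pass. The count that fell was 5 without shControl replicate 2, shLmna replicate 1 or shLmna replicate 3, 6 in DESeq2, and 4 at a mean count of at least 50, where fewer genes were tested. The 9 that passed in either direction make up 64.3% of the tested list. Over all tested genes 13.7% passed, 7.96% higher and 5.78% lower. The list median was -1.11, beside 0.0033 over all tested genes. The list was drawn up with the fall of Ccl5, Cxcl10 and Rsad2 already known, so its direction is not independent evidence. Without those 3 genes, 5 of 11 fell and 1 rose, with a median of -0.72. These 11 were also chosen with earlier results of these data known, so they are not independent evidence either. Under the study's stricter rule, with a mean normalized count above 5 and an absolute log2 fold change above 1 as well, 7 of the 14 were lower and 1 was higher, beside 5.71% of all tested genes in either direction, 1.74% lower and 3.97% higher. None of the 8 sensing genes met that rule.

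The 2 chemokine genes of the list were the most abundant in shControl of those that fell. Ccl5, which encodes a chemoattractant for T cells and monocytes and is a direct IRF3 target in textbook accounts, had 409, 651 and 315 UMIs in shControl and 41, 37 and 36 in shLmna. It fell from 177 ± 23.2 to 16.03 ± 2.84 CPM (SD, n = 3 each), a log2 fold change of -3.48 with a standard error of 0.19 (edgeR adjusted p = 3.6e-08). Cxcl10, which encodes a ligand of the receptor CXCR3, had 367, 418 and 348 UMIs in shControl and 57, 66 and 21 in shLmna. It fell by 2.97 on the log2 scale, with a standard error of 0.23 (edgeR adjusted p = 2.7e-06). Art3 lies on the opposite strand over Cxcl10. In both genes the lowest shControl library stood several times above the highest shLmna library.

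Of the other genes of the list, 6 fell. Rsad2, which encodes viperin, had 18, 45 and 21 UMIs in shControl and only 3, 4 and 0 in shLmna, with a fitted log2 fold change of -3.44 and a standard error of 0.67 (edgeR adjusted p = 0.00063). Oasl1, a relative of the oligoadenylate synthetases that binds RNA, had 241, 235 and 124 UMIs in shControl and 67, 64 and 34 in shLmna, a log2 fold change of -1.80 (edgeR adjusted p = 3.6e-05). Isg15, the gene of a ubiquitin-like modifier, had 322, 374 and 250 UMIs in shControl and 184, 222 and 78 in shLmna. It fell by 0.95 on the log2 scale (edgeR adjusted p = 0.00599). The less abundant Gbp2, Gbp3 and Parp14 fell with log2 fold changes of -1.72, -1.27 and -1.32 (edgeR adjusted p = 0.0142, 0.0440 and 0.0191), at 4 to 38 UMIs per library, and Gbp2 and Gbp3 are members of a multigene family whose reads may be shared. These calls were lost in 5 alternatives for Gbp2, 8 for Gbp3 and 3 for Parp14, with adjusted p up to 0.105 (edgeR without shControl replicate 2), 0.183 (DESeq2) and 0.0908 (edgeR without shControl replicate 2).

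The exceptions were named after their values were seen. Ifit2, a tetratricopeptide antiviral gene, rose from 14, 12 and 14 UMIs in shControl to 35, 31 and 16 in shLmna, with a log2 fold change of 1.05 (edgeR adjusted p = 0.0483). That call was lost in 11 of the alternatives, with adjusted p up to 0.232. The 5 that did not pass were Ifit1, Isg20, Bst2, Ifi35 and Rtp4. Their log2 fold changes were -0.17, -0.72, -0.36, -0.18 and 0.077 (edgeR adjusted p = 0.851, 0.0514, 0.149, 0.435 and 0.874). Bst2, which encodes the virion tether tetherin, was the most abundant gene of the list, at 562 ± 12.0 CPM in shControl and 438 ± 93.0 in shLmna (SD, n = 3 each).

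**Figure D3:**
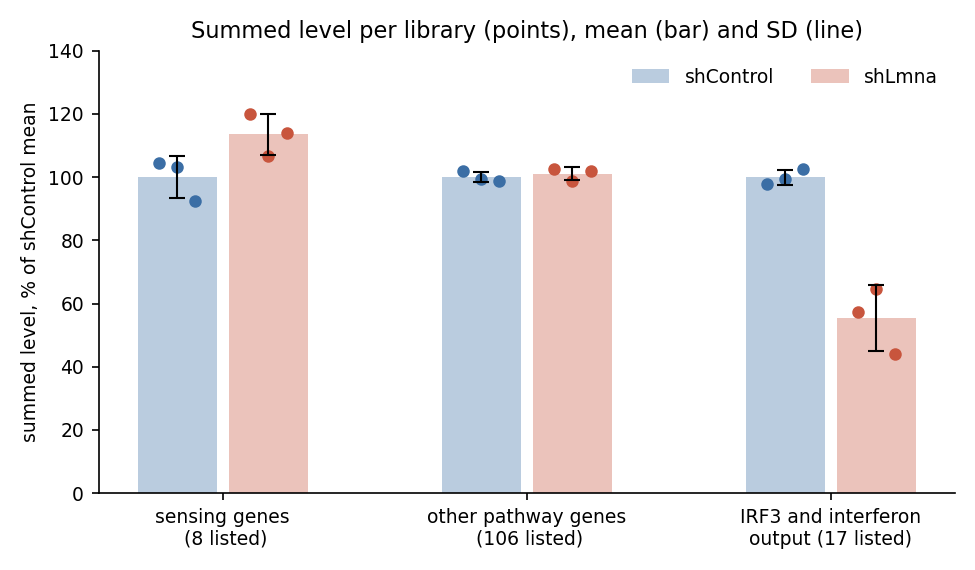
Summed level of the 8 listed sensing genes, of the 106 other listed pathway genes and of the 17 listed IRF3 and interferon output genes in each library (points), as a percentage of the shControl mean, with group mean (bar) and SD (line). The shLmna means were 113.5%, 101.1% and 55.4% of the shControl means. Abundant genes weigh most in each sum.

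Summed over its 17 listed genes, the output list stood at 1291, 1312 and 1352 CPM in shControl and at 756.3, 852.8 and 581.8 in shLmna. The shLmna sum was 55.4% of the shControl sum, or 71.1% without Ccl5, Cxcl10 and Rsad2. Each shLmna library was therefore below every shControl library for the output sum and above every shControl library for the sum of the sensing genes, as the plot of summed levels shows. Whether the output genes differ from the sensing genes was not tested.

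The same motif, read in the same promoter windows as for the sensing genes, was found in 8 of the 17 output genes with a window, or 47.1%: Cxcl10, Ifit1, Ifit3, Isg15, Rsad2, Bst2, Gbp2 and Gbp3. Stretches of 70 bases around the match are shown for 4 output genes that fell: Cxcl10 (chr5:92349063-92349132, minus strand), Rsad2 (chr12:26456533-26456602, minus strand), Isg15 (chr4:156200851-156200920, minus strand) and Gbp2 (chr3:142620574-142620643, plus strand). All are written 5′ to 3′ along the gene, and the capitals of Isg15 cover 3 overlapping matches.
Cxcl10: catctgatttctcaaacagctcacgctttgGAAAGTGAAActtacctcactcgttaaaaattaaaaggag
Rsad2: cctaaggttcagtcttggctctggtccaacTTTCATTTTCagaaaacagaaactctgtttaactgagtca
Isg15: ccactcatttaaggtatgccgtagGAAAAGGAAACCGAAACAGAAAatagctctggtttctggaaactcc
Gbp2: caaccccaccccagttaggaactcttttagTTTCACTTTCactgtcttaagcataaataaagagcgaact

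Of the 7 tested output genes with the motif, 5 fell and 2 did not pass, and of the 4 with a window and no match, Oasl1 fell, Ifit2 rose and 2 did not pass. The other 3, Ccl5 and Parp14 among them, had no window in the sequence table used here. Outside the output list, none of the 9 tested genes of the other 6 lists with the motif passed, nor did Ddx58, and of 72 with a window and no match, 7 rose and 1 fell.

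**Figure D4:**
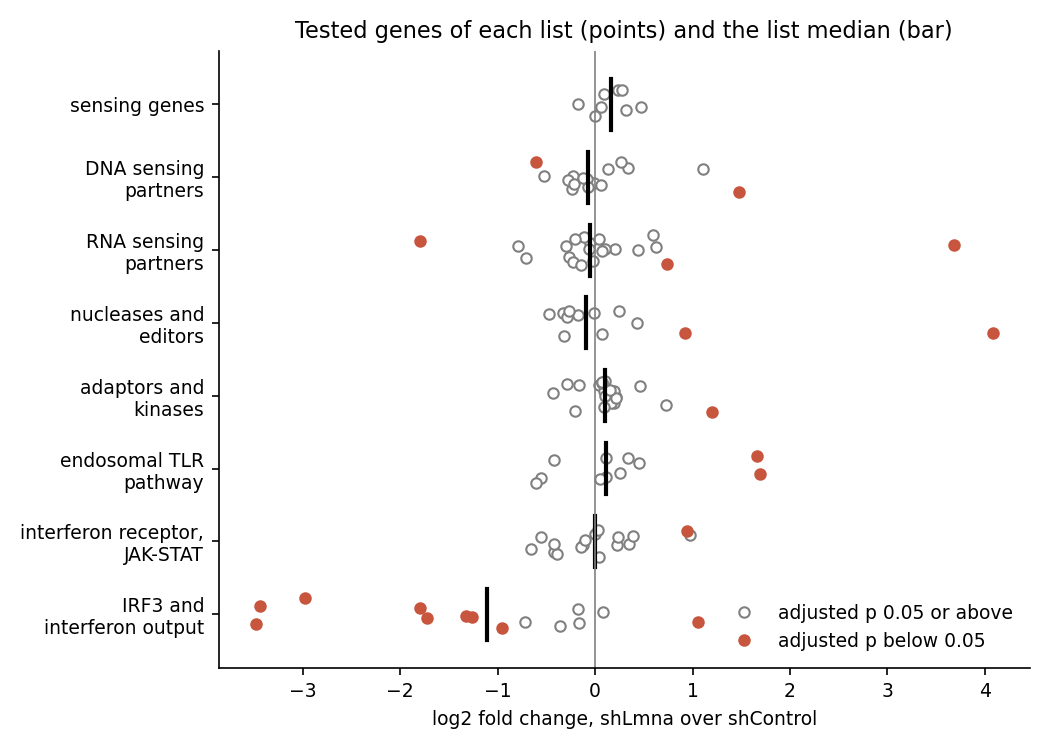
Log2 fold change of shLmna over shControl for every tested gene of the sensing group and of 7 related lists (points, filled red where adjusted p was below 0.05), with the list median as a black bar. The median was 0.16 for the sensing genes, lay between -0.094 and 0.11 for 6 lists and was -1.11 for the IRF3 and interferon output list.

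Beside the sensors and that output, 6 further lists covered 120 genes, of which 106 were in the table and 98 were tested. Some of these genes are themselves induced by interferon, as Ddx58 and Dhx58 are, so the lists do not part upstream genes from output. Oas3, Usp18, Irf7 and Eif2ak2, picked after their values were seen, had log2 fold changes of -0.79, -0.55, -0.43 and 0.20 (edgeR adjusted p = 0.0538, 0.300, 0.234 and 0.479). Ifi203, Samhd1 and Irf9, picked in the same way, had 1.11, 0.43 and 0.39 (edgeR adjusted p = 0.0994, 0.174 and 0.174). None of these passed, and of all 98 genes the estimate was above 0 for 53 and below 0 for 45. In these 98, 9 rose and 1 fell, 10.2% against 13.7% of all tested genes, and their median log2 fold change was 0.049. Over all tested genes 7.96% rose and 5.78% fell. The single lists below, of 11 to 21 tested genes, are too small for their counts to be set apart from these shares. Oasl1, which stands in both the RNA sensing and the output list, is counted here with the output. The summed level of the 106 listed genes was 9474 ± 157 CPM in shControl and 9577 ± 197 in shLmna (SD, n = 3 each). Abundant genes weigh most in this sum, such as Ywhae, Ppp1ca and Banf1 with means of 1642, 874 and 773 CPM in shControl. It therefore says little about scarce genes.

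Among 17 tested partners of DNA and cyclic dinucleotide sensing, 1 rose and 1 fell. Ifi204, an interferon-inducible gene of the HIN-200 family that has been linked to DNA sensing in the mouse, had 9, 25 and 31 UMIs in shControl and 54, 67 and 55 in shLmna. It rose with a log2 fold change of 1.48 and a standard error of 0.37 (edgeR adjusted p = 0.0142), and its reads may be shared with near-identical relatives. The call was lost without shControl replicate 2 or shLmna replicate 3 (edgeR adjusted p = 0.105 and 0.0838). Ttll4 fell by 0.61 on the log2 scale (edgeR adjusted p = 0.0329), a call lost in DESeq2 and when any of 4 libraries was left out, with adjusted p up to 0.137 (without shLmna replicate 3).

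Of 21 tested RNA sensing partners 2 rose and 1 fell, the last being Oasl1. Ddx3x, an RNA helicase that has been reported to work with TBK1 and MAVS, had 4, 4 and 10 UMIs in shControl and 83, 83 and 62 in shLmna, from 2.71 ± 2.26 to 31.5 ± 1.30 CPM (SD, n = 3 each). The log2 fold change was 3.68 with a standard error of 0.42 (edgeR adjusted p = 1.3e-05). Pcbp2, which encodes an RNA-binding protein known to promote turnover of MAVS, had 142, 221 and 129 UMIs in shControl and 265, 309 and 207 in shLmna. It rose by 0.74 on the log2 scale (edgeR adjusted p = 0.00582), and Map3k12 lies on its opposite strand.

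Of 12 tested nucleases and editors that keep self nucleic acid from being sensed, 2 rose and none fell. Pnpt1, the mitochondrial polynucleotide phosphorylase that degrades mitochondrial double-stranded RNA, had 21, 20 and 9 UMIs in shControl and 284, 280 and 236 in shLmna. It rose from 6.42 ± 1.74 to 111.6 ± 12.2 CPM (SD, n = 3 each), a log2 fold change of 4.08 with a standard error of 0.24 (edgeR adjusted p = 3.6e-08). Dnase2a, the lysosomal DNase II, had 66, 78 and 48 UMIs in shControl and 109, 159 and 82 in shLmna, and rose by 0.92 on the log2 scale (edgeR adjusted p = 0.00631). In Pnpt1 and Ddx3x the last 1000 bases had a GC content of 35.5% and 33.7%, beside a median of 44.3% for all genes that rose and 47.1% for all tested genes. Both calls were kept when the fit was corrected for GC content. That correction removes only a trend over all genes in each library, so it cannot decide the part of GC content in single genes, which was not tested.

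Of 21 tested adaptors and kinases, only Traf6, a ubiquitin ligase of Toll-like receptor and MAVS signalling, passed. It had 12, 17 and 19 UMIs in shControl and 42, 33 and 32 in shLmna, a log2 fold change of 1.20 (edgeR adjusted p = 0.0211), and the call was lost at equal depth and when any of 4 libraries was left out, with adjusted p up to 0.130 (without shControl replicate 2). For Ikbke, the closest relative of Tbk1, and Irf7, the closest relative of Irf3, both picked after their values were seen, the log2 fold changes were 0.73 and -0.43 (edgeR adjusted p = 0.241 and 0.234).

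Of 11 tested genes of the endosomal Toll-like receptor pathway, 2 rose. Unc93b1, the chaperone that brings nucleic acid sensing Toll-like receptors to endosomes, had 11, 8 and 4 UMIs in shControl and 28, 24 and 18 in shLmna, a log2 fold change of 1.66 (edgeR adjusted p = 0.00692, or 0.0654 without shControl replicate 2). Tab3, a partner of the kinase TAK1, rose by 1.69 on the log2 scale, from 2, 4 and 8 UMIs to 13, 14 and 17 (edgeR adjusted p = 0.0450), a call that 9 alternatives did not keep. The receptors that Unc93b1 serves, Tlr7, Tlr8, Tlr9 and Tlr13, had no row in the table used here. Among 17 tested genes of the interferon receptor and JAK-STAT list, Ptpn6, the phosphatase SHP-1 that restrains cytokine receptor signalling, rose from 122, 159 and 73 UMIs to 305, 240 and 113, by 0.95 on the log2 scale (edgeR adjusted p = 0.00892, or 0.0651 without shLmna replicate 1).

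Markers of other cell types were read beside these results. Of 10 macrophage or monocyte markers 5 were in the table, and the defining Ptprc, Itgam and Adgre1 had no row in it. Cd14 fell by 1.30 and Lyz2 rose by 1.28 on the log2 scale (edgeR adjusted p = 0.00256 and 0.0110, the latter 0.0520 without shControl replicate 1), and the summed list ran from 44.7 to 48.2 CPM in shControl and from 34.9 to 38.3 in shLmna. Cd14 weighed most in that sum, with mean levels of 27.6 CPM in shControl and 11.3 in shLmna. Cd68 (10.2 and 6.48) and Fcer1g (1.76 and 1.70) were also lower, while Lyz2 (6.00 and 14.7) and Csf1r (1.18 and 2.49) were higher. The markers thus did not share the direction of the sum, and their part in the fall of the output genes was not tested. Of 7 lymphocyte and 6 endothelial markers 1 each was in the table, summing to at most 3.00 and 3.18 CPM in any library. Of 9 mammary epithelial markers 5 were in the table and none of the 4 tested passed, with 3 estimates below 0 and a median log2 fold change of -0.71. Krt8 was the abundant one, at 276 ± 27.5 and 291 ± 15.4 CPM (SD, n = 3 each), with a log2 fold change of 0.074 (edgeR adjusted p = 0.776). Krt14, Epcam and Krt18, which with Krt8 are all those tested, had log2 fold changes of -1.18, -0.90 and -0.53 (edgeR adjusted p = 0.0772, 0.0909 and 0.453), and the groups did not overlap for Krt14 and Epcam. Epcam passed without shLmna replicate 2 (edgeR adjusted p = 0.0137). The part of these markers in the results was not tested, and Cdh1, Krt19 and Krt5 had no row in the table used here.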

How the data were processed

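Bulk RNA of 3 shControl and 3 shLmna E0771 samples was measured by MARS-seq. The authors trimmed reads with cutadapt, mapped them to mm10 with STAR 2.4.2a and used HTSeq to count UMIs over the last 1000 bases of RefSeq genes plus 100 bases downstream. They deposited these as raw counts, which are the only values used here. A gene with reads elsewhere only, such as from another 3' end, is missed. Every gene in the table had at least 6 UMIs in some library, and 2 of the 10 sensing genes had no row. A table of log2 batch-corrected values (the batch is not named) and a DESeq2 table with mean normalized counts, log2 fold changes, p-values and pass marks were not used.

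Counts (1846208 to 3242051 UMIs per library) were filtered with filterByExpr at a minimum count of 10, leaving 8969 of 10520 genes, scaled by TMM and tested with edgeR 4.0.16 (quasi-likelihood, no covariate) in R 4.3.3. p-values were adjusted by Benjamini-Hochberg over all tested genes. Intervals (95%) used the Wald standard error. Scripts were tested on simulated data. Named genes were the 10 sensing genes, Lmna, every gene of a list at adjusted p below 0.05 (at most 8 a list, by p), and the 3 genes most correlated with the sensing gene of smallest p and of highest mean, which is Irf3 in both cases. The sensing genes and lists were chosen with earlier results of these data known. In all, 15 alternatives were run, among them DESeq2 1.42.0 and limma-voom 3.58.1. Of the table's genes 10468 matched GENCODE M21, 323 of them through another symbol.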

Additional observations from a re-analysis of the deposited data

How the results depend on the processing

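No sensing gene had an adjusted p below 0.05 in edgeR or in any of the 15 alternatives, and the lowest was 0.0745, for Irf3 with all libraries thinned to the smallest. At an unadjusted p below 0.05 the count was 1 in 6 alternatives (GC correction with and without the replicate block, limma-voom, a mean count of at least 50, thinning, and without shControl replicate 3) and 0 in edgeR, DESeq2 and the rest. Ddx58 could not be fitted in 1 alternative and Dhx58 in 2, where the filter removed them. The log2 fold change of Irf3 ranged from 0.23 to 0.48, that of Ddx58 from 0.37 to 0.58, of Tbk1 from 0.13 to 0.37, of Tmem173 from 0.12 to 0.37 and of Mb21d1 from -0.29 to -0.019. Mavs, at -0.0046, changed sign to 0.10 with GC correction and the replicate block, 0.088 with GC correction, 0.017 with limma-voom, 0.010 at a mean count of at least 50, 0.015 with the replicate block and 0.029 after thinning, and ranged from -0.19 to 0.11 with 1 library left out. Leaving out 1 library also changed the sign of Dhx58 (-0.22 to 0.27), Trex1 (-0.090 to 0.27) and Krt8 (-0.0070 to 0.12). The cause was not tested.

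Over all genes, 1232 passed. The count was 779 at a mean count of at least 50, where fewer genes were tested, 540 to 1580 with 1 library left out (794 and 540 without shControl replicates 1 and 2, 757 and 651 without shLmna replicates 2 and 3), and 1010 to 1516 otherwise. The labels do not say what a replicate number shares, so whether it pairs the samples is not known. Same-numbered libraries correlated at 0.352, -0.115 and 0.00519 in their deviations from the group means, and the replicate block gave 1350 genes. With the block, Gbp3 and Ifit2 no longer passed (adjusted p = 0.0531 and 0.0580). Calls lost with 1 library left out, with their highest adjusted p, were those of Ifi204 (0.105; shControl 2 or shLmna 3), Ttll4 (0.137; shControl 1 or 2, shLmna 2 or 3), Traf6 (0.130), Gbp2 (0.105) and Gbp3 (0.178; all 3 genes with shControl 1 or 2 or shLmna 1 or 3), Parp14 (0.0908; shControl 2, shLmna 1 or 3), Tab3 (0.235) and Ifit2 (0.232; both with any but shControl 3), Unc93b1 (0.0654; shControl 2), Ptpn6 (0.0651; shLmna 1) and Lyz2 (0.0520; shControl 1). DESeq2 lost Ttll4, Tab3, Gbp2, Gbp3 and Ifit2 (adjusted p = 0.0689, 0.117, 0.0717, 0.183 and 0.162), GC correction Tab3 and Ifit2 (0.0937 and 0.0815, with the block 0.0703 and 0.100), testing without a low-count filter Tab3, Gbp3 and Ifit2 (0.0673, 0.0587 and 0.0553), and thinning Traf6, Gbp3 and Ifit2 (0.0556, 0.0564 and 0.122). Those of Lmna, Ddx3x, Oasl1, Pcbp2, Pnpt1, Dnase2a, Ccl5, Cxcl10, Rsad2, Isg15 and Cd14 were kept in every alternative that tested them. Of 210 counts of genes higher or lower in a list, 47 moved by over 1.5 times, 26 of them with 1 library left out. Lower counts ranged from 4 to 9 in the output list, 1 to 3 in RNA sensing (3 without shControl replicate 3), 0 to 2 in DNA sensing (2 without shControl replicate 3) and 0 to 1 in interferon receptor and JAK-STAT, and were 0 throughout in the other 3. Higher counts ranged from 1 to 3 in RNA sensing, 0 to 2 in the endosomal pathway and in interferon receptor and JAK-STAT and 0 to 1 in DNA sensing, adaptors and kinases, and output, and were 2 throughout for nucleases.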

Other observations

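Genes that rose in shLmna had 3' ends lower in GC than those that fell: the median over the last 1000 bases was 44.3% for 713 genes that rose, 49.6% for 515 that fell and 47.1% for 7705 that did not pass. The 8 sensing genes had a median of 50.5%, with Mb21d1 at 39.2% and Tbk1 at 39.6% as the lowest and Trex1 at 58.0% as the highest. Ifih1 and Tlr3, which had no row in the table used here, have annotated 3' ends of 35% and 36% GC.

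The 3 listed genes of the output list that were too scarce for the test are given as counts. Mx2 had 8, 14 and 6 UMIs in shControl and 4, 3 and 1 in shLmna, Ifit3 had 8, 10 and 4 against 5, 4 and 1, and Cmpk2 had 10, 8 and 14 against 8, 13 and 5.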
